A study of Mus musculus with 6 samples.

Results

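The FLRT genes, their UNC5 receptors and the latrophilins were read from 6 expression arrays of mouse gastrocnemius, a calf muscle. The set holds 10 genes, the adhesion proteins Flrt1, Flrt2 and Flrt3, the netrin receptors Unc5a, Unc5b, Unc5c and Unc5d, and the latrophilins Adgrl1, Adgrl2 and Adgrl3, out of 22180 genes with a probe set of their own. Each was found by its gene symbol in the platform annotation, and all 10 were measured. In 3 TAK1 knockout mice the kinase TAK1 had been deleted in skeletal muscle only, 3 weeks before the muscle was taken, and 3 floxed littermates without that deletion were the controls. Both groups carried the floxed TAK1 gene, which is Map3k7, and each array held RNA of 1 mouse. The promoter driving the deletion, the age of the mice and the deleted exons were not stated in the labels. The genes were chosen by the difference of Flrt1 between these same arrays, which was already known, and completed with its relatives and binding partners. The differences of its genes are therefore given as a description with the error of the fit, without a test.

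FLRT proteins span the cell membrane and carry leucine-rich repeats and a fibronectin type III domain on the outside. The repeats bind UNC5 receptors, which also serve as netrin receptors and mostly mediate repulsion of axons and cells, and latrophilins, which are adhesion G protein-coupled receptors that additionally bind teneurins. FLRT proteins also interact with FGF receptors. These contacts are known from neuronal wiring, synapse formation and vascular growth.

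The values are log2 probe set levels made with RMA, which brings the arrays' intensity distributions together, so array medians lay between 5.78 and 5.84. Arrays of one group correlated over all genes at 0.990 to 0.992 (Pearson's r, a description, since genes are no replicates), and arrays of different groups at 0.985 to 0.990. Levels of different probe sets are not compared with each other. Background was judged from odorant and vomeronasal receptor genes, 95% of which had a mean log2 level under 5.85. All 10 muscle fibre markers lay above it. The targeted gene, Map3k7, had levels of 8.20, 8.28 and 8.17 in knockout muscle and 8.47, 8.32 and 8.42 in control muscle. It differed by −0.19 (95% confidence interval −0.40 to 0.03), and a two-sided exact permutation test gave p = 0.1, the smallest that 3 against 3 arrays can give. Cells other than fibres keep the gene, and which part of it probe set 17412350 covers relative to the deletion is not known here, so the level does not settle the labels.

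Flrt1 had the largest difference of the 10 genes. Its log2 levels were 7.38, 6.67 and 7.01 in the 3 knockout muscles and 9.86, 10.43 and 10.67 in the 3 control muscles (probe set 17362256). The groups were separated by a gap of 2.48 between the highest knockout and the lowest control value, and every value lay above background. The mean was 7.02 ± 0.35 in knockout and 10.32 ± 0.41 in control muscle (SD, n = 3 each), a log2 difference of −3.30 (SE 0.23, 95% confidence interval −3.83 to −2.77). On a linear scale this was a level 9.84-fold lower, or 89.8% below control. No other gene of the 22180 had a more negative difference. In bulk muscle, fewer cells of a type and less RNA per cell cannot be told apart.

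**Figure D1:**
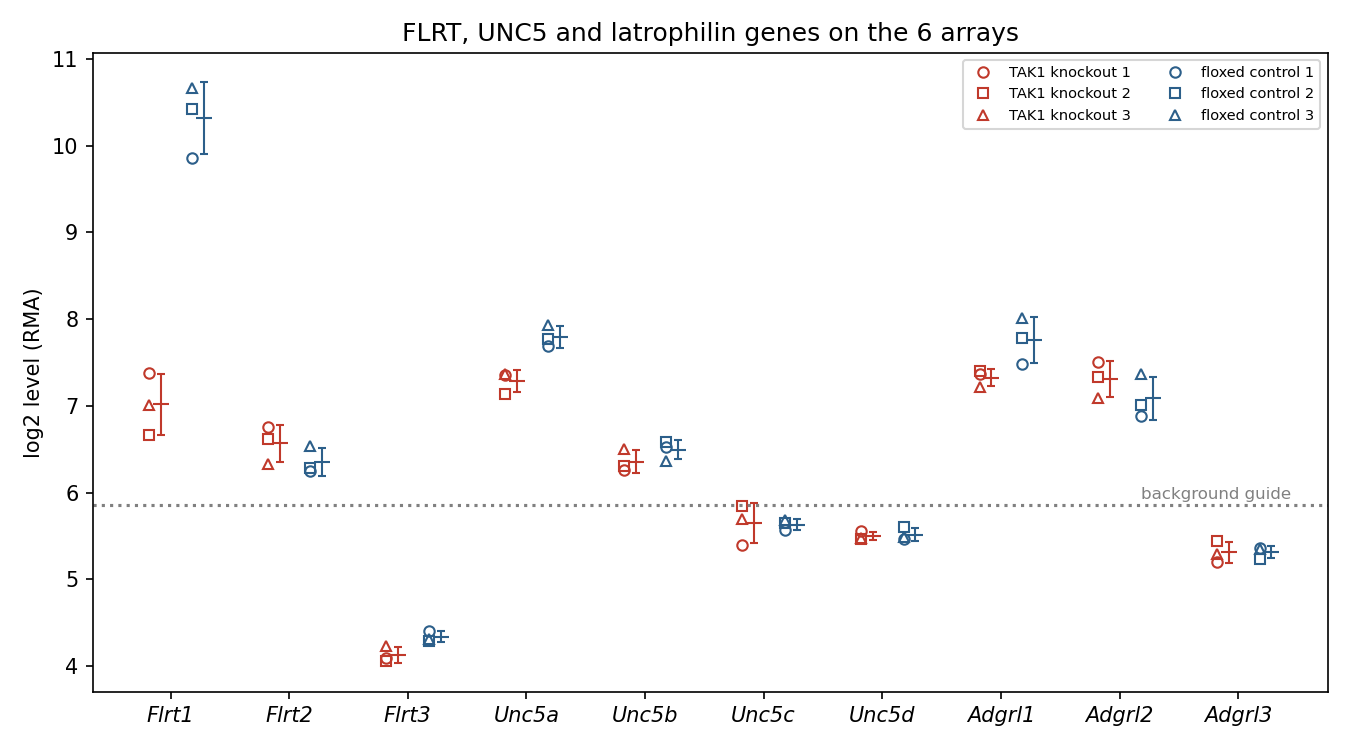
Log2 level (RMA) of the 10 genes on each array, with knockout muscle in red left of control muscle in blue. Symbols mark replicates, bars the mean and SD (n = 3), and the dotted line the background guide of 5.85. Flrt1 shows a gap of 2.48 between the groups, and the other 9 genes differ by at most 0.51 in size.

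The other FLRT genes had small differences of opposite sign. Flrt2, which binds UNC5 receptors in the developing nervous system and in vessels, had levels of 6.75, 6.62 and 6.33 in knockout muscle and 6.25, 6.28 and 6.54 in control muscle. These ranges overlapped, and the difference was 0.21 (95% confidence interval −0.10 to 0.52). Flrt3, a partner of latrophilins and of UNC5 receptors, had levels of 4.09, 4.06 and 4.24 in knockout and 4.41, 4.29 and 4.32 in control muscle. The groups did not overlap, but all 6 values lay well below the background guide, so the difference of −0.21 (−0.43 to 0.01) is not read as a change of the transcript.

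Among the UNC5 receptors, Unc5a was lower in every knockout muscle. Its levels were 7.36, 7.14 and 7.36 in knockout muscle and 7.69, 7.77 and 7.93 in control muscle, a gap of 0.33 between the groups. The mean was 7.29 ± 0.13 against 7.80 ± 0.12 (SD, n = 3 each), a difference of −0.51 (SE 0.11, 95% confidence interval −0.76 to −0.25), and 1.05% of all genes had a more negative one. Unc5b, which in vessels is a receptor of endothelial cells, had levels of 6.26, 6.31 and 6.51 in knockout and 6.53, 6.58 and 6.37 in control muscle. Its groups overlapped through knockout 3 and control 3, and the difference was −0.14 (−0.39 to 0.12). Endothelial markers, 8 of 8 of them above background, had mean log2 levels of 8.36 to 8.37 in knockout muscle and 8.24 to 8.53 in control muscle on the same arrays. Unc5c and Unc5d, receptors known from neuronal migration, had means below background in both groups (5.65 and 5.63 for Unc5c, 5.50 and 5.52 for Unc5d), with differences of 0.02 (−0.28 to 0.31) and −0.02 (−0.23 to 0.20).

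The latrophilins pointed in different directions. Adgrl1, the founding latrophilin and a receptor of teneurins and FLRT proteins, had levels of 7.36, 7.40 and 7.21 in knockout muscle and 7.49, 7.78 and 8.01 in control muscle. The groups did not overlap, but the gap was 0.09, much less than the control spread. The mean was 7.33 ± 0.10 against 7.76 ± 0.26 (SD, n = 3 each), a difference of −0.44 (SE 0.14, 95% confidence interval −0.76 to −0.11). Adgrl2, a relative that also binds FLRT proteins, had levels of 7.51, 7.33 and 7.09 in knockout muscle and 6.89, 7.01 and 7.36 in control muscle. These overlapped, with a difference of 0.22 (−0.13 to 0.58). Adgrl3, the latrophilin best known as a FLRT3 receptor, lay below background on its higher probe set, at 5.31 ± 0.12 in knockout and 5.32 ± 0.07 in control muscle (SD, n = 3 each), a difference of −0.01 (−0.24 to 0.23). It was the only gene of the set with a further probe set, whose means were 4.32 and 4.40, also below background. Whether the differences of Adgrl1 and Adgrl2 differ from each other was not tested.

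**Figure D2:**
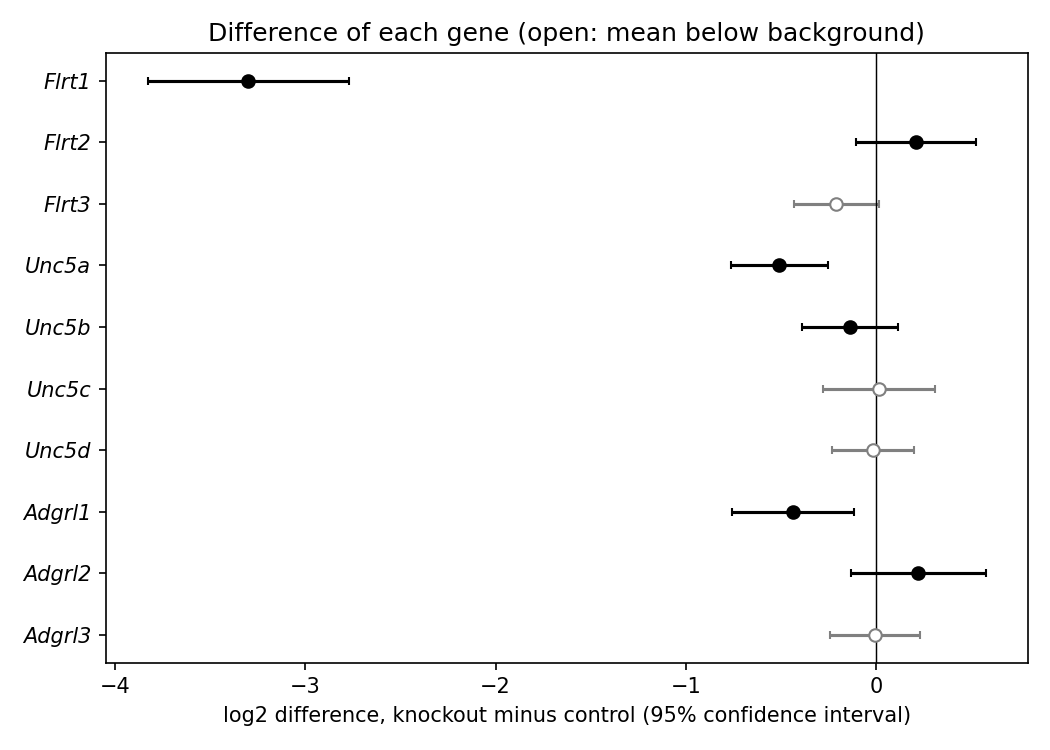
Log2 difference, knockout minus control, of each gene with its 95% confidence interval from the fit over all genes (n = 3 mice a group). Filled points mark genes with a mean above background. Flrt1 lies at −3.30, Unc5a at −0.51 and Adgrl1 at −0.44, and the intervals of the other 7 genes include 0.

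In the fit over all genes 0.0947% of genes passed an adjusted p of 0.05 (limma), and 1 of the 10 genes did, Flrt1, for which the set was assembled. The groups did not overlap in 13.4% of all genes and in 4 of the 10, Flrt1, Flrt3, Unc5a and Adgrl1, with the knockout lower each time. Lower and not overlapping was the case for 6.65% of all genes. Since the contrast was used in choosing the set, nothing is read from these shares. In all, 7 genes were lower and 3 higher, with a median difference of −0.08, against −0.0003 over all genes. Of the 10 genes, 6 had a mean above background. Among the controls, control 1 had the lowest level in 7 of the 10 genes and control 3 the highest in 6. The 3 knockout arrays were each lowest in 3 or 4.

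In the RefSeq annotation of assembly GRCm38.p6, Flrt1 lies wholly inside Macrod1, a gene for an enzyme that removes ADP-ribose from proteins, and Flrt3 lies wholly inside its relative Macrod2. In both host genes the groups overlapped. Macrod1 had levels of 9.66, 9.73 and 9.54 in knockout muscle and 9.33, 10.32 and 10.12 in control muscle. The knockout values lay within the control range, with a difference of −0.28 (adjusted p = 0.833, limma). Macrod2 had a mean of 6.03 ± 0.09 in knockout and 6.10 ± 0.20 in control muscle (SD, n = 3 each), a difference of −0.08 (adjusted p = 0.936, limma). Of the 6 measured genes on each side of Flrt1, 9 were lower and 3 higher, with a median of −0.15, and 0 of these 12 passed (limma).

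A transcript annotated as a miscellaneous RNA that overlaps Flrt1 in the same annotation, 5730409K12Rik, was noticed after the values were seen. Its levels were 7.17, 6.58 and 6.65 in knockout muscle and 7.54, 7.71 and 8.21 in control muscle (probe set 17548098). The groups did not overlap, and the difference was −1.02 (95% confidence interval −1.49 to −0.55), without passing over all genes (adjusted p = 0.196, limma). Its values placed the 6 arrays in the same order as those of Flrt1, as did 43 of the 22179 genes other than Flrt1 (0.194%), this transcript included. Only genes lower without overlap can share that order, and 1474 of all genes (6.65%) were so. Nothing is therefore read from the shared order. Whether its probes also detect Flrt1 RNA was not tested, so the difference is uncertain.

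**Figure D3:**
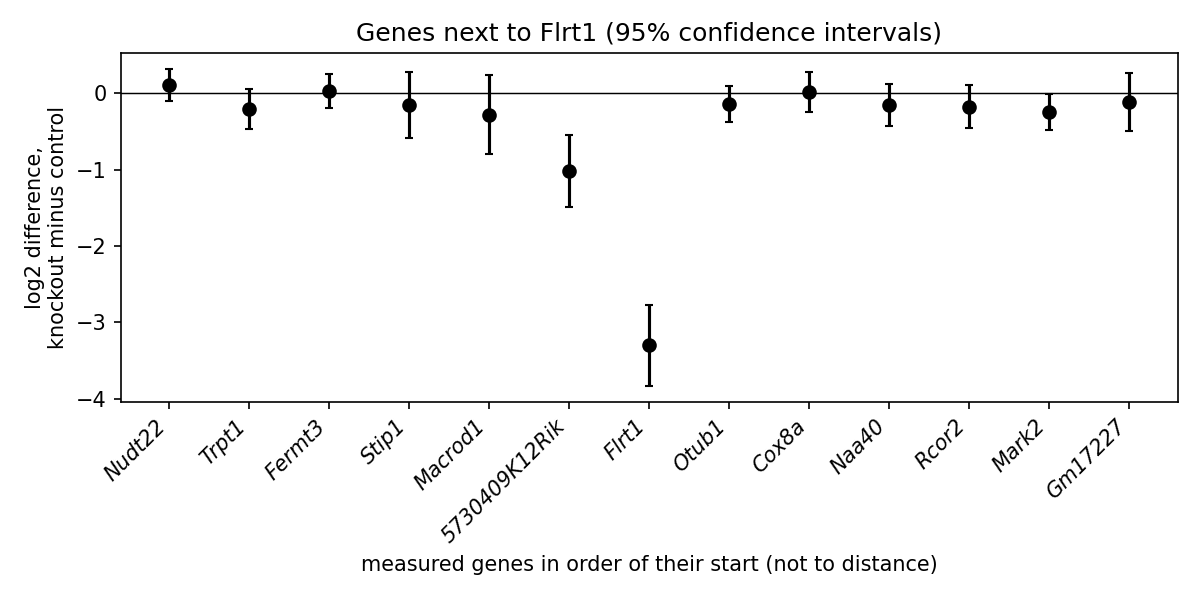
Log2 difference, knockout minus control, of Flrt1 and the 6 measured genes on each side of it in chromosomal order, with 95% confidence intervals from the fit over all genes (n = 3 mice a group). Flrt1 lies at −3.30 and the overlapping transcript 5730409K12Rik at −1.02, and the other 11 genes lie between −0.28 and 0.11.

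The promoter table of RefSeq for GRCm38.p6 held 8 of the 10 genes, all but Flrt1 and Unc5d. The 250 bases before the start site listed there are shown for the 4 of them with a mean above background and a difference over 0.2 in size. This limit was chosen after the values were seen. Unc5a and Adgrl1 had a lower mean in knockout muscle. Flrt2 and Adgrl2 had a higher mean there, but their groups overlapped and their intervals include 0. Set against the gene spans of the same annotation, the Adgrl1 window ends at the gene's outer start, those of Unc5a and Adgrl2 lie inside the gene before an internal start site, and that of Flrt2 lies mostly inside it. Which start sites are used in muscle is not known here. CG dinucleotides, the sites of DNA methylation in promoters, are in capitals. The windows are Unc5a at chr13:54949161-54949410 (plus strand), Adgrl1 at chr8:83899848-83900097 (plus strand), Flrt2 at chr12:95691976-95692225 (plus strand) and Adgrl2 at chr3:148954636-148954885 (minus strand).
Unc5a: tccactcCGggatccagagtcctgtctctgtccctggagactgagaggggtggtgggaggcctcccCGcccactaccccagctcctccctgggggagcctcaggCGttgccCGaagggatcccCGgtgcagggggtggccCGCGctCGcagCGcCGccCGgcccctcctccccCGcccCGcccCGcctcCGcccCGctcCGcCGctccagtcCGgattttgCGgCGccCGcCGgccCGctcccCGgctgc
Adgrl1: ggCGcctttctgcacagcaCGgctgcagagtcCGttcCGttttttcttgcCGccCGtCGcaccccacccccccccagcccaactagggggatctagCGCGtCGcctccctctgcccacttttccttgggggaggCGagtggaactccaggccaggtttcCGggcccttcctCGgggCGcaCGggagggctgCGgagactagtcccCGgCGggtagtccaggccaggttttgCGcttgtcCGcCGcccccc
Flrt2: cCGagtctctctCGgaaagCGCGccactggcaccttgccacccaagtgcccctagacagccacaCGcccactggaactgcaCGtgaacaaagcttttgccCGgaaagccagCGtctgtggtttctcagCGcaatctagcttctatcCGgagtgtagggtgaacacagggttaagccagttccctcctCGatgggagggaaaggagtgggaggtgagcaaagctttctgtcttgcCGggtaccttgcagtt
Adgrl2: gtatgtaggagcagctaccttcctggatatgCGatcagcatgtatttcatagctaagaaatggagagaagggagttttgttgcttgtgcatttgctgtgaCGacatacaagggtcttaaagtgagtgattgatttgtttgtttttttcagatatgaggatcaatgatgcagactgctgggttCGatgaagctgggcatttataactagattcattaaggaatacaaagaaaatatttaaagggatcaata
Unc5a held 25 CG dinucleotides and Adgrl1 21, Flrt2 held 12 and Adgrl2 3, against a median of 6 over all promoters of the table. The E-box CANNTG, the recognition motif of myogenic factors among others, was searched on both strands. It was found 2 times in the Flrt2 window, 1 time in that of Adgrl2 and in neither of the other windows, and 66.2% of all promoters of this length hold it. None of the 4 held the AP-1 motif TGANTCA (6.75% of all promoters) or the NF-kB motif (3.90%), which are bound by factors that act downstream of TAK1. Motifs could overlap each other. These counts describe the windows only, and since the windows differ in their place in the gene, no comparison between lower and higher genes is drawn.

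The genes most like Flrt1 over the 6 arrays were found by the root mean square difference between log2 profiles after each gene's mean was subtracted. Predicted genes and clone names were left out of this ranking, so one of them may lie nearer. The nearest was Tceal7, a member of the TCEAL family, at 0.43, followed by Mss51, a muscle mitochondrial protein, at 0.77, Map3k7cl at 0.86 and the tetraspanin Tspan8 at 0.88. Within the family the nearest were Unc5a at 1.41 and Adgrl1 at 1.45, and the other 7 genes lay between 1.58 and 1.78. Tceal7 had levels of 5.56, 5.52 and 5.32 in knockout muscle and 7.93, 7.82 and 8.81 in control muscle, so its knockout values lay below background and those of Flrt1 above it. The measure mostly reflects the difference between the groups, and no shared function is drawn from it.

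**Figure D4:**
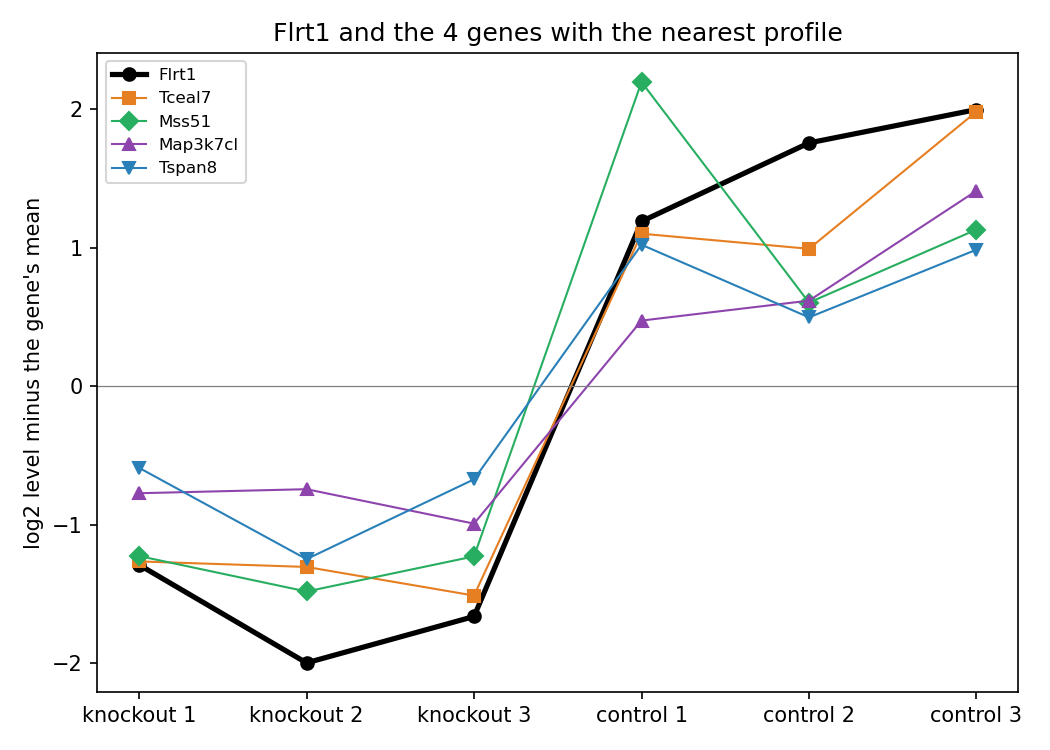
Log2 level minus the gene's mean over all arrays, for Flrt1 (thick black line) and the 4 genes with the nearest profile, on the 3 knockout and 3 control arrays. Predicted genes and clone names were left out. Lines only join the values of a gene. All 5 genes lie below 0 in every knockout and above 0 in every control muscle.

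Known partners of the family, together with other adhesion and axon guidance genes, were read from 8 fixed lists with 142 genes, of which 136 were measured. Among them were 33 other leucine-rich repeat adhesion genes and 42 other axon guidance genes. None of the 136 passed over all genes (limma, 0 higher and 0 lower), and 13 had an unadjusted p under 0.05 (9.56%), against 8.04% of all genes. The groups did not overlap in 17 of the 136, or 12.5%, near the share over all genes. Their median difference was −0.04. The netrin receptor Neo1, neogenin, which binds netrins and RGM proteins, had levels of 8.96, 8.78 and 8.92 in knockout and 9.31, 9.28 and 9.14 in control muscle, a difference of −0.35 (adjusted p = 0.393, limma). Netrin genes Ntn1 and Ntn4 had differences of 0.07 and 0.17, and the receptor Dcc lay below background (4.56 and 4.33). Of the 11 measured genes of this list, 6 were higher and 5 lower, with a median of 0.04.

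Among teneurins, the ligands of latrophilins, Tenm3 had levels of 7.65, 7.14 and 7.62 in knockout muscle and 8.28, 7.72 and 8.18 in control muscle. The groups did not overlap, by 0.07, and the difference was −0.59 (95% confidence interval −1.01 to −0.17, adjusted p = 0.440, limma). Tenm4 differed by −0.12, and Tenm1 and Tenm2 lay below background. The teneurin list had 5 genes higher and 6 lower of 11, with a median of −0.06, and Lrrc4b, a postsynaptic leucine-rich repeat protein, had its largest positive difference above background (0.17). Of the 7 SLIT and ROBO genes, 4 were lower and 3 higher, with a median of −0.15. Robo1, a guidance receptor that interacts with FLRT3, differed by −0.21, and the ligand Slit2 lay below background.

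FGF receptors and co-receptors had a median of −0.02, with 6 of 15 higher. Fgfr1 had a mean of 8.37 ± 0.18 in knockout and 8.38 ± 0.02 in control muscle (SD, n = 3 each), and Fgfr4, a receptor of muscle precursors, differed by −0.11. The heparan sulfate proteoglycan glypican 4, Gpc4, had levels of 8.66, 8.51 and 8.49 in knockout muscle and 8.04, 8.06 and 8.20 in control muscle. Its groups did not overlap, with a difference of 0.45 (adjusted p = 0.233, limma), while Gpc6 had the most negative difference of the list above background (−0.12). Of 33 other leucine-rich repeat adhesion genes, 16 lay above background and 20 were lower, with a median of −0.04. In this list 6 had an unadjusted p under 0.05 (18.2%, limma), against 8.04% of all genes, and 0 passed. The largest difference was that of Lrrn1, a neuronal leucine-rich repeat protein, with levels of 6.76, 7.41 and 7.50 in knockout and 7.85, 8.64 and 8.19 in control muscle. It differed by −1.00 (95% confidence interval −1.55 to −0.45) and did not pass (adjusted p = 0.274, limma). Lrrn2 had the largest positive difference of that list above background (0.07).

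**Figure D5:**
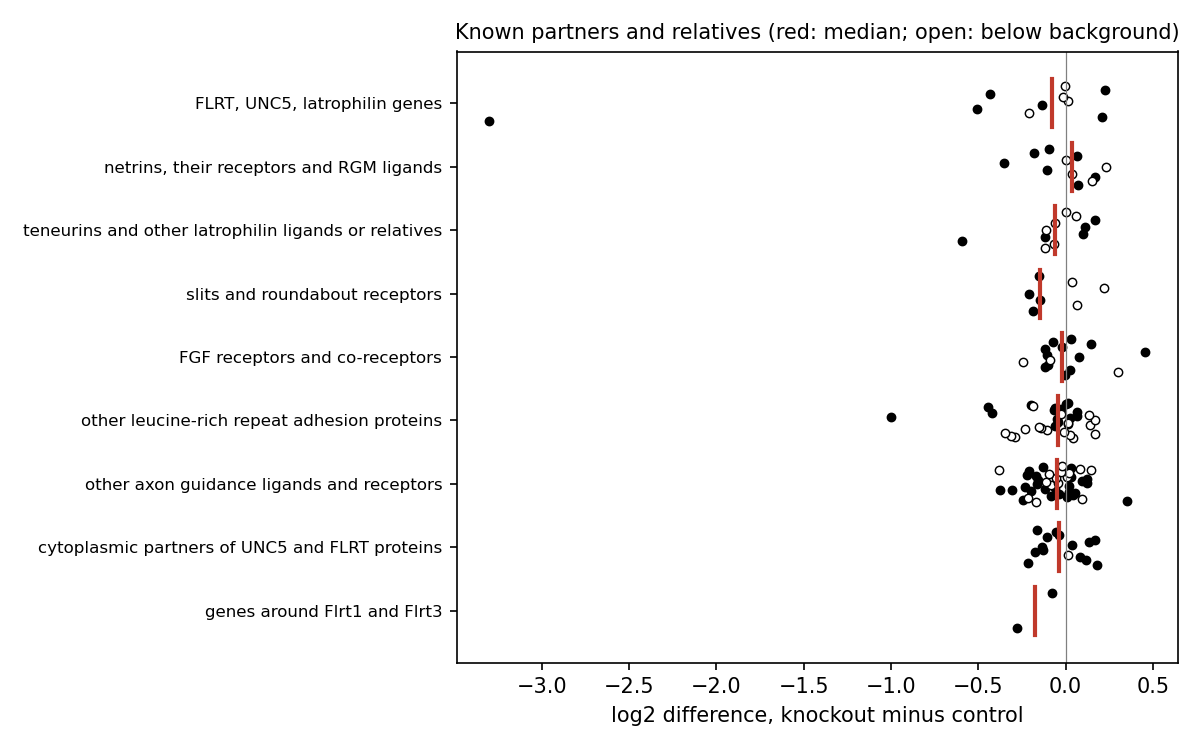
Log2 difference, knockout minus control, of the 10 genes (top row) and of the measured genes of the 8 fixed lists of partners and other adhesion and guidance genes. Each point is a gene, filled where its mean lay above background, and red lines are medians, which lie between −0.18 and 0.04 for the 8 lists. Flrt1 at −3.30 lies apart from all other points, of which Lrrn1 at −1.00 is the most negative.

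Markers of muscle fibres and of other cell types were set beside these values. Of the 10 fibre markers, 7 were lower in knockout muscle and 0 passed (limma), with a median difference of −0.004. The groups did not overlap in 5 (50%), against 13.4% of all genes. Of these 5, 4 were lower, among them Acta1 and Ttn by only −0.05 each, and 1 was higher (Des, 0.17). The mean log2 level of the 10 markers was 12.84 to 12.91 in knockout muscle and 12.90 to 12.98 in control muscle. The fast myosin heavy chain Myh1 differed by −0.49 (adjusted p = 0.418, limma) and the fast light chain Mylpf by −0.46 (adjusted p = 0.221, limma), differences close in size to those of Unc5a and Adgrl1. All 8 tenocyte markers were lower in knockout muscle, with a median difference of −0.56, and 0 of them passed over all genes (limma). An unadjusted p under 0.05 was reached by 4 of the 8 (50%, limma), against 8.04% of all genes. The mean log2 level of the 8 was 7.44, 7.06 and 6.55 in knockout muscle and 7.37, 7.85 and 7.84 in control muscle, with Mkx below background. The ranges overlapped through knockout 1 and control 1. Satellite cell markers had mean levels of 6.92 to 7.01 in knockout muscle and 7.09 to 7.13 in control muscle, without overlap. Of the 8, 5 were lower, Calcr lay below background and Chodl was the most negative (−0.57, adjusted p = 0.145, limma). Taken singly, the groups did not overlap in 2 of the 8 (25%, against 13.4% of all genes), Chodl and Cdh15 (−0.26). In Pax7 (−0.05) and Myf5 (0.02) they overlapped. The part of fibre, tenocyte and satellite cell markers in the differences of Flrt1, Unc5a and Adgrl1 was not tested. Schwann cell markers (5 of 8 measured) and nerve axon markers had median differences of 0.02 and −0.01, with 4 of 5 and 3 of 8 above background. Markers of fibro-adipogenic cells, smooth muscle, macrophages and adipocytes had medians between −0.09 and 0.01, with overlapping ranges.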

How the data were processed

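RNA of 6 gastrocnemius muscles was measured on Affymetrix arrays, 1 a mouse. The authors deposited log2 probe set values, 41345 a sample. RMA, oligo and limma are named, without version or order, per the submitters' processing notes. RMA compresses differences of dim transcripts. Batches of scanning were not analysed here, and the number of arrays limits the precision.

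Probe sets were named through GEO's platform annotation. Of them, 23521 had 1 symbol, 1814 had several and 16010 had none. For 1082 genes with several probe sets the brightest on average was kept, giving 22180 genes. Knockout minus control was fitted by limma 3.58.1 under R 4.3.3 (lmFit, eBayes, two-sided, Benjamini-Hochberg over all genes, threshold 0.05). Confidence intervals are at 95%. Background was set by 1394 olfactory and vomeronasal receptor genes. Plots used matplotlib 3.10.9 in Python 3.11.15. On simulated data with 22180 genes the fit recovered 53.6% of genes lowered 1.5-fold and 96.8% of those lowered 2-fold. Of the genes called there, 5.76% had not been lowered. The simulation drew independent normal noise with the fit's own variances and lowered 200 genes. In the arrays 21 genes passed, and more changed genes ease the adjusted threshold. The recovered shares are therefore not read as the power of the 6 arrays.

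The genes, lists, rule for named genes and tests were chosen with earlier results of these data known. The rule named all 10 genes, 12 set partners, the largest difference in each direction of each list above background, and the 4 profiles nearest to Flrt1. For these profiles, predicted genes and clone names were left out. The labels do not say whether equal replicate numbers pair mice. Arrays of equal number had deviations from group means that correlated at 0.08, 0.21 and -0.07 across genes, which does not settle it. The alternatives tried were median centring, quantile normalization, every probe set tested, probe sets averaged per gene, genes above background only, array weights, an intensity trend with robust prior, the replicate number as a block and leaving out each array.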

Additional observations from a re-analysis of the deposited data

How the results depend on the processing

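The difference of Flrt1 lay between -3.53 and -3.13 when each array was left out and between -3.35 and -3.29 under the other 8 alternatives. Unc5a ranged from -0.56 to -0.44 and Adgrl1 from -0.57 to -0.31 when each array was left out. Flrt2 ranged from 0.12 to 0.33 and Adgrl2 from 0.12 to 0.36, while Unc5c, Unc5d and Adgrl3, near 0, changed sign in 3, 2 and 4 of these 6 fits. Genes below background have no value when only genes above background are kept. The count of all genes past the threshold was 21. It was 6 with every probe set tested, 45 with genes above background only, 36 with an intensity trend and robust prior, and 17 with the replicate block, and it ran from 2 to 11 when each array was left out (2 without knockout 2, 3 without knockout 1, 11 without knockout 3, 7 without each control). Samples share only a number, and 2 of 3 knockouts correlated best with the control of their own number. In this balanced design the replicate block cannot change a mean difference, so it bears only on the errors, the adjusted p and the counts. No gene of the fixed lists passed under any of these alternatives, and Map3k7 passed under none (adjusted p 0.496 to 0.877). Low signal limits Flrt3, Unc5c, Unc5d and Adgrl3.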

Other observations

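Beyond the direct partners, the other axon guidance genes, already counted among the 136 genes of the fixed lists, showed small differences. The list held semaphorin, plexin, neuropilin, ephrin and Eph receptor genes. Of its 42 measured genes, 17 were higher and 25 lower in knockout muscle, with a median of -0.05 and 0 past the threshold (limma, 4 at an unadjusted p under 0.05). Sema3b, a secreted semaphorin, had the largest positive difference above background, with levels of 7.14, 7.24 and 7.05 in knockout muscle and 6.50, 7.03 and 6.87 in control muscle (0.35, adjusted p = 0.590, limma). Sema6c, a transmembrane semaphorin, had the most negative one, with levels of 8.24, 8.13 and 7.73 in knockout muscle and 8.38, 8.31 and 8.53 in control muscle (-0.38, adjusted p = 0.560, limma). In both genes the groups did not overlap.

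Of 15 measured cytoplasmic partners of UNC5 and FLRT proteins, 14 lay above background, 7 were higher and 8 lower, and 0 passed (limma, 0 at an unadjusted p under 0.05). The death-associated kinases Dapk1 and Dapk2 had the largest differences in each direction above background, at 0.18 and -0.21, with overlapping groups.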
